A study of Mus musculus with 4 samples.

Results

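Receptors for the Fc part of antibodies were examined in Langerhans cells, which sample and present antigen in the epidermis. The 7 genes were Fcer1g, Fcer1a, Fcgr1, Fcgr2b, Fcgr3, Fcgr4 and Fcgrt, chosen by name out of 24441 gene symbols in the tables, and each was listed at 1 locus in all 4 libraries. The cells had been sorted from the epidermis of mice 4 weeks old and their RNA sequenced, with 2 libraries of wild-type mice (WT 1 and WT 2) and 2 of CD11cCreTfamfl/fl mice (Tfam cKO 1 and Tfam cKO 2, called knockout here). In the latter, Cre driven by the CD11c gene, which is active in dendritic cells and other CD11c-expressing cells as well as in Langerhans cells, targets Tfam, the gene of the mitochondrial transcription and DNA-packaging factor. The labels do not say which mice or how many each library came from, nor whether the wild-type mice carried Cre or floxed alleles, so the p-values speak of the spread among these 4 libraries alone, and that spread may be technical. Levels are FPKM as deposited, which are fragments scaled to the length of the transcript and to the number of fragments mapped in the library.

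Fc receptors couple antibodies to cells. Most of the activating receptors consist of a ligand-binding chain, such as those encoded by Fcer1a for IgE and by Fcgr1, Fcgr3 and Fcgr4 for IgG, and a shared signalling chain, the FcR gamma chain encoded by Fcer1g, whose ITAM (a pair of tyrosine motifs) recruits the kinase SYK after phosphorylation by SRC-family kinases. Fcgr2b encodes the inhibitory IgG receptor, which carries its own ITIM (an inhibitory tyrosine motif) and recruits the phosphatase SHIP-1, encoded by Inpp5d. Fcgrt encodes the heavy chain of FcRn, an MHC class I-like receptor that pairs with beta-2 microglobulin and returns IgG and albumin from acidic endosomes to the cell surface. The FcR gamma chain also serves receptors that do not bind antibodies, among them the C-type lectin Dectin-2, encoded by Clec4n.

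The signalling motifs that set the gamma chain and the inhibitory receptor apart are shown as coding sequence, because these were the 2 Fc receptor genes of highest level in the libraries. They were read from the first-numbered coding transcript of each gene in GENCODE M21 on GRCm38, and positions count from the A of the start codon. In the ITAM of Fcer1g, coding bases 193 to 237, capitals mark the codons of the 2 tyrosines and of the leucine that follows each:
Fcer1g: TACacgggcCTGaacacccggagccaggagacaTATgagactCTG
In the ITIM of Fcgr2b, coding bases 949 to 966, capitals mark the codons of the isoleucine, the tyrosine and the leucine of the motif:
Fcgr2b: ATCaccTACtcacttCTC
The ITAM pattern, 2 tyrosines each followed at the third residue by leucine or isoleucine with 6 to 8 residues between the units, was found once in the translated Fcer1g and in none of the other 6 translated coding sequences. The looser ITIM pattern matched once in Fcgr2b and also in the translations of Fcer1g, Fcgr1, Fcgr4 and Fcgrt, so a match alone does not mark an inhibitory receptor.

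Fcgr2b and Fcgr3 are near copies in the part that binds IgG, which bears on how fragments can be assigned to them. Their coding sequences were identical at 80.5% of 791 aligned bases, against 55.0% to 62.9% for the other 9 pairs among Fcer1a, Fcgr1, Fcgr2b, Fcgr3 and Fcgr4. The longest run that both share without a difference was 129 bases, from coding base 278 to 406 of Fcgr2b and 263 to 391 of Fcgr3:
shared by Fcgr2b and Fcgr3: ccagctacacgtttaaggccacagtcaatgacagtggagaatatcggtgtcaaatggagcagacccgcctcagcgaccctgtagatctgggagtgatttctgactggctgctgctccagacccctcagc
The 60 bases that follow differed at 1 base only, in capitals:
Fcgr2b: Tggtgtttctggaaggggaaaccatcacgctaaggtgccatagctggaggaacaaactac
Fcgr3: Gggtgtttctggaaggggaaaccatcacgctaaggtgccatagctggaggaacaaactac
Of all windows of 50 bases along the Fcgr3 transcript, 12.8% occurred unchanged in an Fcgr2b transcript. For windows of 100 bases the share was 3.53%, and for 150 bases it was 0. For Fcgr4, no window of 50 bases occurred in Fcgr2b or Fcgr3. Read length and the treatment of fragments that match both genes are not known here, so the low values of Fcgr3 below are uncertain.

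In the coordinates of the tables, Fcgr2b (chromosome 1, 172890688 to 172906202), Fcgr4 (172949056 to 172959892), Fcgr3 (172981299 to 172989534) and Fcer1g (173159702 to 173164480) lay in a row on chromosome 1, with Fcer1a further on (175151401 to 175157360). Fcgr1 was on chromosome 3 (96086831 to 96097892) and Fcgrt on chromosome 7 (52348362 to 52359192). None of the 7 overlapped another gene model of the tables. The processing notes name mm10, but 0 of the 7 positions overlapped the gene of that name on GRCm38, so the build of these coordinates is unresolved.

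The targeted gene did not separate the libraries by their labels. Tfam had an FPKM of 3.17 in WT 1 and 1.61 in WT 2, and of 1.65 in Tfam cKO 1 and 1.53 in Tfam cKO 2, so that the library labelled WT 2 lay between those labelled Tfam cKO. The fitted difference was −0.35 in log2 (SE 0.25, limma adjusted p = 0.90). A gene-level value can include fragments from outside the deleted part, in which case it checks nothing. Library names are therefore used as labels throughout, and every direction between genotypes rests on them. Values without the library labelled WT 2 are given for Fcgr2b, for Fcgrt and for the ratio of Fcgr3 to Fcgr2b. The Langerhans cell label was met by its markers: Cd207, the langerin gene, ranged from 1374 to 2098 FPKM and Epcam from 180 to 200 FPKM. Keratinocyte transcripts were also abundant, with a summed level of 10 marker genes of 8319 to 12510 FPKM, and 13 genes of dissociation and early stress summed to 16638 to 24125 FPKM. In bulk samples of this kind, fewer cells of a type and less RNA per cell cannot be told apart.

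The Fc receptor genes covered the whole range from among the most abundant transcripts to 0. Fcer1g averaged 327 FPKM over the 4 libraries and ranked 151st of the 10910 genes with a mean of at least 1 FPKM. Fcgr2b averaged 36.3 FPKM, at or above 86.5% of those genes, and Fcgrt 4.45 FPKM, at or above 30.7% of them. Fcgr3 averaged 0.280 FPKM and Fcgr4 0.0552 FPKM. Fcer1a and Fcgr1 were listed at 0 in every library. The order Fcer1g, Fcgr2b, Fcgrt, Fcgr3 was the same in each library with no overlap between neighbouring genes, whereas Fcgr3 and Fcgr4 at the bottom rested on too few fragments to be ordered. FPKM is per transcript length, so these levels can be compared between genes. The 3 genes Fcer1g, Fcgr2b and Fcgrt passed the minimum of 1 FPKM and were tested. None of them passed the test between genotypes at a limma adjusted p below 0.05, as 2 of all 10910 genes did (0.0183%).

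**Figure D1:**
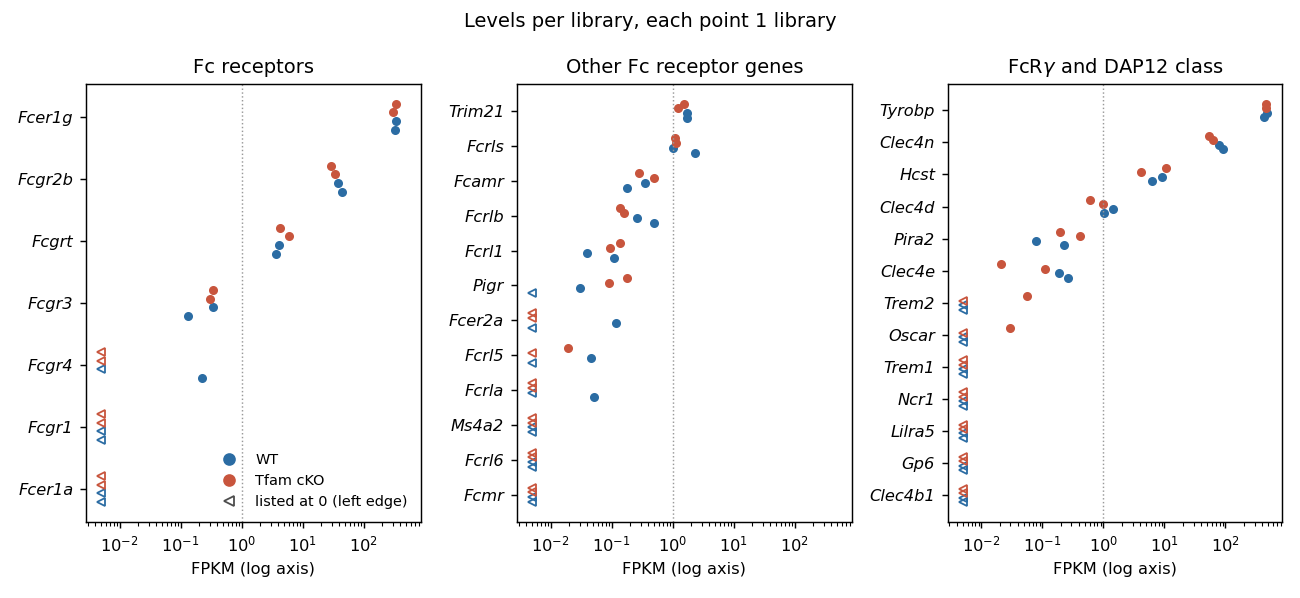
FPKM on a log axis for the 7 Fc receptor genes (left), 12 other Fc receptor genes (middle) and 13 genes of receptors and adaptors of the FcR gamma and DAP12 class (right), each filled point 1 library, blue for WT and red for Tfam cKO, with open triangles at the left edge for values listed at 0, which have no place on a log axis, and a dotted line at 1 FPKM. Fcer1g and Tyrobp lie above 290 FPKM in every library, while Fcer1a, Fcgr1 and Ms4a2 have triangles only.

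The signalling chain was abundant and did not separate the genotypes. Fcer1g measured 330 (WT 1) and 337 FPKM (WT 2), and 298 (Tfam cKO 1) and 344 FPKM (Tfam cKO 2). Tfam cKO 1 was the lowest and Tfam cKO 2 the highest library, so the groups overlapped. The means were 334 ± 5.01 FPKM for wild type and 321 ± 32.3 FPKM for the knockout (SD over n = 2 in each). The log2 fold change of FPKM + 1, Tfam cKO minus WT, was −0.06 (SE 0.20, 95% interval −0.51 to 0.39, limma adjusted p = 0.988). That interval leaves room for changes of either sign. T and NK cells can also carry the gamma chain, and their markers, given below, had lower sums in Tfam cKO 1 than in both WT libraries, a part that was not tested. Each value rested on 1428 to 2833 effective fragments, the number that the width of Cufflinks' interval corresponds to.

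The ligand-binding chains that pair with the gamma chain were listed at 0 or near it. Fcer1a, the IgE-binding chain of the high-affinity IgE receptor of mast cells and basophils, and Fcgr1, the high-affinity IgG receptor of monocytes and macrophages, were listed at 0 with an OK status in all 4 libraries. None of 12 housekeeping genes checked was at 0 in any library. No number of fragments can be derived for a gene at 0, so no exact upper limit was set for these. A rough scale comes from Fcgr4 and Fcgr3, where 2 to 8 fragments made 0.133 to 0.345 FPKM. Their transcripts of 1256 and 1347 bases compare with 998 bases for Fcer1a and 2589 bases for Fcgr1. Fcgr4, an activating IgG receptor of mouse myeloid cells, was at 0.221 FPKM in WT 1, which corresponds to 3 fragments, and was listed at 0 in WT 2, Tfam cKO 1 and Tfam cKO 2. Fcgr3, the low-affinity activating IgG receptor, measured 0.133 (WT 1) and 0.339 FPKM (WT 2), and 0.302 (Tfam cKO 1) and 0.345 FPKM (Tfam cKO 2). WT 1 was the lowest of these and the groups overlapped. Those values stand for 2, 7, 4 and 8 fragments, and Cufflinks' interval reached 0 in WT 1 and Tfam cKO 1.

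The summed level of Fcer1a, Fcgr1, Fcgr3 and Fcgr4 was therefore between 0.302 and 0.354 FPKM in every library. Fcer1g exceeded that sum 932-fold (WT 1), 994-fold (WT 2), 987-fold (Tfam cKO 1) and 997-fold (Tfam cKO 2). The mean log2 ratio was 9.91 in WT and 9.95 in Tfam cKO, a difference of 0.04 (exact permutation test, two-sided, p = 0.667, where 2 libraries against 2 cannot give less than 0.333). The denominator holds so few fragments that the sizes of these ratios are rough.

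Markers of mast cells, basophils and monocytes were low as well, while macrophage markers, described with Fcgrt below, summed to 189 to 331 FPKM. Only 6 of those 13 macrophage markers reached a mean of 1 FPKM. Large parts of their sum were Adgre1, at 76.8 to 97.8 FPKM, and Cd68, at 55.2 to 69.9 FPKM. Which cells carried these transcripts was not tested, so the sum does not show that macrophages were present. Among 10 mast cell markers, 6 were listed at 0 in all libraries, including the proteases Cpa3, Cma1, Mcpt4, Tpsb2 and Tpsab1 and the beta chain of the high-affinity IgE receptor, Ms4a2. The sum of the list was 1.24 and 2.0 FPKM for wild type and 2.28 and 1.46 FPKM in Tfam cKO, with Kit, which melanocytes express too, at 0.521 to 1.32 FPKM and Hdc at 0.350 to 0.694 FPKM. All 3 basophil markers were at 0 in every library. Of the 7 monocyte markers none reached a mean of 1 FPKM, and their sum was 0.585 to 1.0 FPKM. NK cell markers, from cells known for Fcgr3, summed to 6.61 and 6.89 FPKM in wild type against 2.97 and 4.14 in the knockout, most of it the perforin gene Prf1, which T cells share, with Ncr1, Klra8 and Gzma at 0 throughout. Dermal dendritic cell markers summed to 14 and 17 FPKM in wild type against 20.6 and 22.5 in the knockout. The higher knockout sums mainly followed Mgl2 (log2 fold change 1.07, limma adjusted p = 0.15). Itgae, the other tested gene of that list, overlapped between the groups (log2 fold change −0.12). Xcr1 was at or below 0.156 FPKM and Clec9a at or below 0.0543 FPKM, so the sum does not show a rise of the list as a whole. Melanocyte markers came to 1.51 to 5.40 FPKM, those of endothelial cells to 0.146 to 0.413 FPKM and those of fibroblasts to 0.278 to 1.07 FPKM. The part of such cells in the Fc receptor values was not tested.

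The inhibitory receptor was the main IgG receptor by level. Fcgr2b made up 99.2% of the summed FPKM of Fcgr1, Fcgr2b, Fcgr3 and Fcgr4 (WT 1), 99.1% (WT 2), 99.1% (Tfam cKO 1) and 98.9% (Tfam cKO 2). Fcgr2b exceeded Fcgr3, the activating receptor with a nearly identical IgG-binding part, 330-fold (WT 1), 112-fold (WT 2), 111-fold (Tfam cKO 1) and 85.7-fold (Tfam cKO 2). The difference between the genotypes in the log2 ratio of Fcgr3 to Fcgr2b was 0.98 (exact permutation test, two-sided, p = 0.333, the smallest that 2 against 2 can give). It was 0.20 without WT 1, the library in which Fcgr3 stands on 2 fragments, and ranged up to 1.76 without WT 2.

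Fcgr2b was lower in each knockout library than in either wild-type one, but the difference did not pass the test. It measured 44.0 (WT 1) and 37.9 FPKM (WT 2), and 33.6 (Tfam cKO 1) and 29.5 FPKM (Tfam cKO 2). The step between the nearest libraries of the groups, WT 2 and Tfam cKO 1, was about as large as the steps within the groups, and Cufflinks' intervals of these libraries, 34.8 to 41.0 and 30.1 to 37.0 FPKM, overlapped. The means were 41.0 ± 4.29 FPKM for wild type and 31.6 ± 2.85 FPKM for the knockout (SD over n = 2 in each), with a log2 fold change of −0.36 (SE 0.18, 95% interval −0.77 to 0.04, limma unadjusted p = 0.0708, adjusted p = 0.85). Values rested on 386 to 607 effective fragments. Of all 10910 tested genes, 9.75% had each knockout library below each wild-type one.

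The Fcgr2b difference was larger after rescaling. It was −0.38 on the log2 scale between the libraries numbered 1 and −0.35 between those numbered 2. Rescaling all libraries to equal totals moved the median fold change of all genes from 0.07 to −0.04 and that of Fcgr2b to −0.49 (limma unadjusted p = 0.0126, adjusted p = 0.77). Quantile normalization gave −0.48 (limma unadjusted p = 0.0145, adjusted p = 0.77). Relative to the median of all genes, Fcgr2b stood at −0.44 as deposited and −0.46 after rescaling. Only 2.63% of tested genes had a lower fold change as deposited. After rescaling, 19.8% of genes had each knockout library below each wild-type one, Fcgr2b among them.

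Markers of other cells that could be present had the following levels beside this difference. B and plasma cell markers summed to 0.198 and 0.199 FPKM in wild type against 0.0897 and 0.285 in the knockout, with Ms4a1, a defining gene of B cells, at 0 in every library. Neutrophil markers summed to 1.77 and 3.79 FPKM in wild type against 0.0497 and 4.78 in the knockout. S100a8 alone was at 1.64 and 3.22 FPKM in wild type against 0 and 4.69 in the knockout. Ly6g, Retnlg and Mmp8 were at 0 in every library, so the sum mainly follows S100a8. The 8 markers of dendritic epidermal T cells found in the tables summed to 304 and 352 FPKM in wild type against 196 and 311 in the knockout. Langerhans cell markers summed to 24766 and 25132 FPKM in wild type against 28810 and 22508 in the knockout. Cd74, H2-Ab1 and H2-Aa were the highest of that list in each library, so the sum mainly follows these. Cd74 was at 9289 and 10360 FPKM in wild type against 12340 and 9264 in the knockout. Cd207 alone was at 2098, 1495, 1528 and 1374 FPKM in WT 1, WT 2, Tfam cKO 1 and Tfam cKO 2, so its highest and lowest libraries were those of Fcgr2b. Of the 12 markers in that list, 2 were higher in each knockout library, Mfge8 and Cdh1, and 2 were lower, Itgax and Id2. The other 8 overlapped, Cd207 among them, beside 25.4% higher and 9.75% lower of all tested genes. The summed macrophage markers, described with Fcgrt below, were higher in the knockout libraries where Fcgr2b was lower. The part of cell makeup in the Fcgr2b values was not tested.

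FcRn transcripts were low and slightly higher in the Tfam cKO libraries, without passing the test. Fcgrt measured 3.60 (WT 1) and 4.03 FPKM (WT 2), and 5.86 (Tfam cKO 1) and 4.32 FPKM (Tfam cKO 2). Tfam cKO 1 stood above the others, whereas Tfam cKO 2 was close to WT 2. The means were 3.82 ± 0.304 FPKM for wild type and 5.09 ± 1.09 FPKM for the knockout (SD over n = 2 in each), with a log2 fold change of 0.33 (SE 0.19, 95% interval −0.10 to 0.76, limma adjusted p = 0.87). Between the libraries numbered 1 it differed by 0.58 and between those numbered 2 by 0.08. The fold change was 0.14 without Tfam cKO 1, 0.51 without Tfam cKO 2 and 0.39 without WT 2. The groups were apart as deposited, as were 25.4% of all tested genes in that direction, but overlapped after rescaling to equal totals, where 14.3% of genes were still apart that way. Macrophage markers had a summed level over 13 genes of 199 and 189 FPKM in wild type against 331 and 249 in the knockout, and 5 of the 6 tested ones were higher in each knockout library than in either wild-type one. None of the 6 passed, and 4 had a limma unadjusted p below 0.05, all of them higher, as did 5.01% of all tested genes in that direction. The complement gene C1qc, chosen after its values were seen, was at 1.74 and 2.85 FPKM in wild type against 17.1 and 9.31 in the knockout (log2 fold change 2.07, limma adjusted p = 0.11). Adgre1, the highest of that list in each library, was at 91.5 and 80.7 FPKM in wild type against 97.8 and 76.8 in the knockout (log2 fold change 0.01). Mrc1, Mertk and Lyve1 were at or below 0.211 FPKM and Timd4 at or below 0.603 FPKM. Cd163, Vsig4 and Folr2 of that list were at 0 in every library, and the part of macrophage transcripts in the Fcgrt values was not tested.

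**Figure D2:**
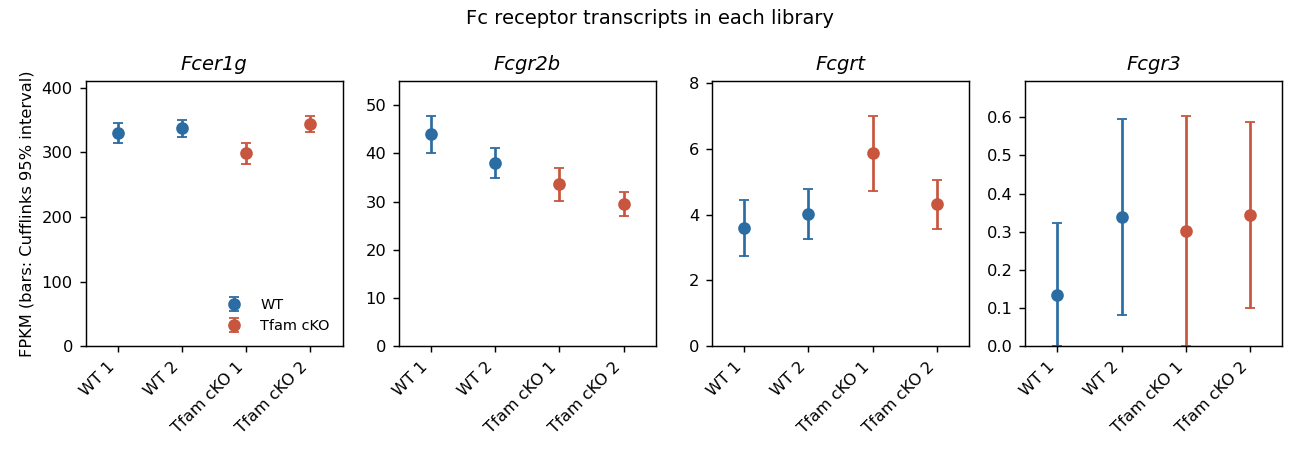
FPKM of Fcer1g, Fcgr2b, Fcgrt and Fcgr3 in each library, with its own scale from 0 in each panel, points in blue for WT and red for Tfam cKO and bars for Cufflinks' 95% interval, which covers counting error only. Fcgr2b runs from 44.0 in WT 1 to 29.5 in Tfam cKO 2, Fcer1g overlaps between the groups, and the intervals of Fcgr3 span most of its scale.

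Read against the whole table, the members gave no call. The 2 genes that passed over the whole table were both higher in Tfam cKO, and neither was an Fc receptor gene. At a limma unadjusted p below 0.05 there were also 0 of the 3 tested members, against 6.21% of all genes (5.01% higher and 1.19% lower). Fcgr2b was below that unadjusted threshold after rescaling and after quantile normalization, as given above, and without WT 2 (log2 fold change −0.47, unadjusted p = 0.0308), but in none of these did its adjusted p pass.

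Other receptors for antibody added little. Of the 12 further Fc receptor genes, Trim21 and Fcrls were the 2 with a mean of at least 1 FPKM. Trim21, the cytosolic antibody receptor and ubiquitin ligase, was at 1.72 and 1.71 FPKM in wild type against 1.24 and 1.52 in the knockout (log2 fold change −0.19, limma adjusted p = 0.93). Fcrls, an Fc receptor-like scavenger receptor, was at 2.32 and 1.02 FPKM in wild type against 1.14 and 1.08 in the knockout. WT 1 was the library that stood apart for Fcrls. Ms4a2, the IgM receptor gene Fcmr and Fcrl6 were at 0 in all libraries, and Fcer2a, the low-affinity IgE receptor, was above 0 in WT 2 only.

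Few of the partners of the gamma chain and DAP12 that do not bind antibody were detected at a level that could be tested. Clec4b1, Gp6, Lilra5, Ncr1 and Trem1 were listed at 0 in every library, and the 2 receptors with a mean of at least 1 FPKM were Clec4n and Clec4d. Clec4n, which encodes Dectin-2, a receptor for fungal mannans that signals through the gamma chain, measured 92.5 (WT 1) and 78.1 FPKM (WT 2), and 62.6 (Tfam cKO 1) and 53.8 FPKM (Tfam cKO 2), in the same order of libraries as Fcgr2b. Its log2 fold change was −0.54 (SE 0.19, limma unadjusted p = 0.0192, adjusted p = 0.66). Tyrobp, the gene of DAP12, an ITAM adaptor of the same kind as the gamma chain, was at 433 and 484 FPKM in wild type against 460 and 454 in the knockout, with a log2 fold change near 0 (limma adjusted p = 0.998). Of the 13 genes in this list 4 were tested, none passed in either direction, and 2 were lower and 0 higher in each knockout library, where 9.75% of all tested genes were lower and 25.4% higher. Their median log2 fold change was −0.23, against 0.07 for all tested genes, and −0.42 against −0.04 after rescaling to equal totals. Oscar, Trem2 and Clec4e, whose proteins pair with the gamma chain or DAP12, were at or below 0.258 FPKM in every library.

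The kinases, adaptors and GTPases downstream of an activating Fc receptor were expressed, and none passed the test. Of 29 genes in this list 28 were tested, with 6 higher and 2 lower in each knockout library and 20 overlapping, close to the 25.4% higher and 9.75% lower of all tested genes, and a median log2 fold change of 0.06 (−0.07 after rescaling to equal totals). At an unadjusted p below 0.05 there were 0. The 2 of highest level were the GTPase genes Cdc42, at 198 and 163 FPKM in wild type against 207 and 190 in the knockout, and Rac1, at 143 and 131 and at 145 and 135 FPKM. Both had overlapping groups. Syk, the kinase that binds the phosphorylated ITAM, was at 13.1 and 14.1 FPKM in wild type against 16.3 and 13.5 in the knockout (log2 fold change 0.12, limma adjusted p = 0.96). Malt1, a protease of the CARD9 complex downstream of SYK, had the lowest p of the list, with 121 and 108 FPKM in wild type against 87.0 and 85.1 in the knockout (log2 fold change −0.40, limma adjusted p = 0.81). Syk and Malt1 were chosen after their values were seen.

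The inhibitory arm was likewise expressed in all libraries, with all 13 genes tested and none past the threshold. In this list 2 were higher and 2 lower in each knockout library, beside 25.4% and 9.75% of all tested genes. The median log2 fold change was 0.04 (−0.07 after rescaling), and 0 had an unadjusted p below 0.05. Ptpn6, which encodes the ITIM-binding phosphatase SHP-1, was at 130 and 115 FPKM in wild type against 111 and 109 in the knockout (log2 fold change −0.15, limma adjusted p = 0.96). Inpp5d, whose product SHIP-1 is the main effector of the inhibitory receptor, was at 42.2 and 44.7 FPKM in wild type against 46.7 and 40.0 in the knockout (log2 fold change −0.01, limma adjusted p = 0.996). The groups overlapped for Inpp5d, and whether its difference departs from that of Fcgr2b, which did not pass either, was not tested.

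For FcRn, the partner chain was far more abundant than the heavy chain. B2m, beta-2 microglobulin, which also serves classical MHC class I, was at 1638 and 1412 FPKM in wild type against 1376 and 1534 in the knockout (log2 fold change −0.07, limma adjusted p = 0.99). Rab5a, a GTPase of early endosomes, was at 49.3 and 37.2 FPKM in wild type against 56.9 and 49.1 in the knockout (log2 fold change 0.30, limma adjusted p = 0.89). Of the 7 tested genes of this list of 8, none was apart between the groups, where 25.4% of all tested genes were higher and 9.75% lower. The median log2 fold change was 0.13, and 0.02 after rescaling to equal totals.

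Of 20 factors and receptors known to set Fc receptor levels, 17 reached a mean of 1 FPKM. The other 3 were the GATA factors of mast cells, Gata1, at 0 in every library, and Gata2, at or below 0.305 FPKM, and the complement receptor gene C5ar1, at 0.164 and 0.0240 FPKM in wild type against 0.905 and 0.590 in the knockout. Spi1, the gene of the myeloid factor PU.1, was at 131 and 146 FPKM in wild type against 156 and 130 in the knockout, and Cebpb at 147 and 159 and at 187 and 145 FPKM. For both the groups overlapped. Of the 17 tested genes, 8 were higher and 1 lower in each knockout library as deposited, beside 25.4% and 9.75% of all tested genes. After rescaling, the shares over all tested genes were 14.3% and 19.8%, and no such count was made for this list. None of the 17 passed, and 2 had an unadjusted p below 0.05, both higher, as did 5.01% of all genes. These were, chosen after their values were seen, Il10rb, a subunit of the IL-10 receptor, at 6.70 and 4.22 FPKM in wild type against 11.5 and 9.38 in the knockout (log2 fold change 0.84, limma adjusted p = 0.52), and Tgfbr1, a TGF-beta receptor, at 8.87 and 6.56 and at 11.2 and 11.7 FPKM (difference of 0.53 in log2, limma adjusted p = 0.66). The median log2 fold change of the list was 0.12 as deposited and −0.003 after rescaling to equal totals.

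**Figure D3:**
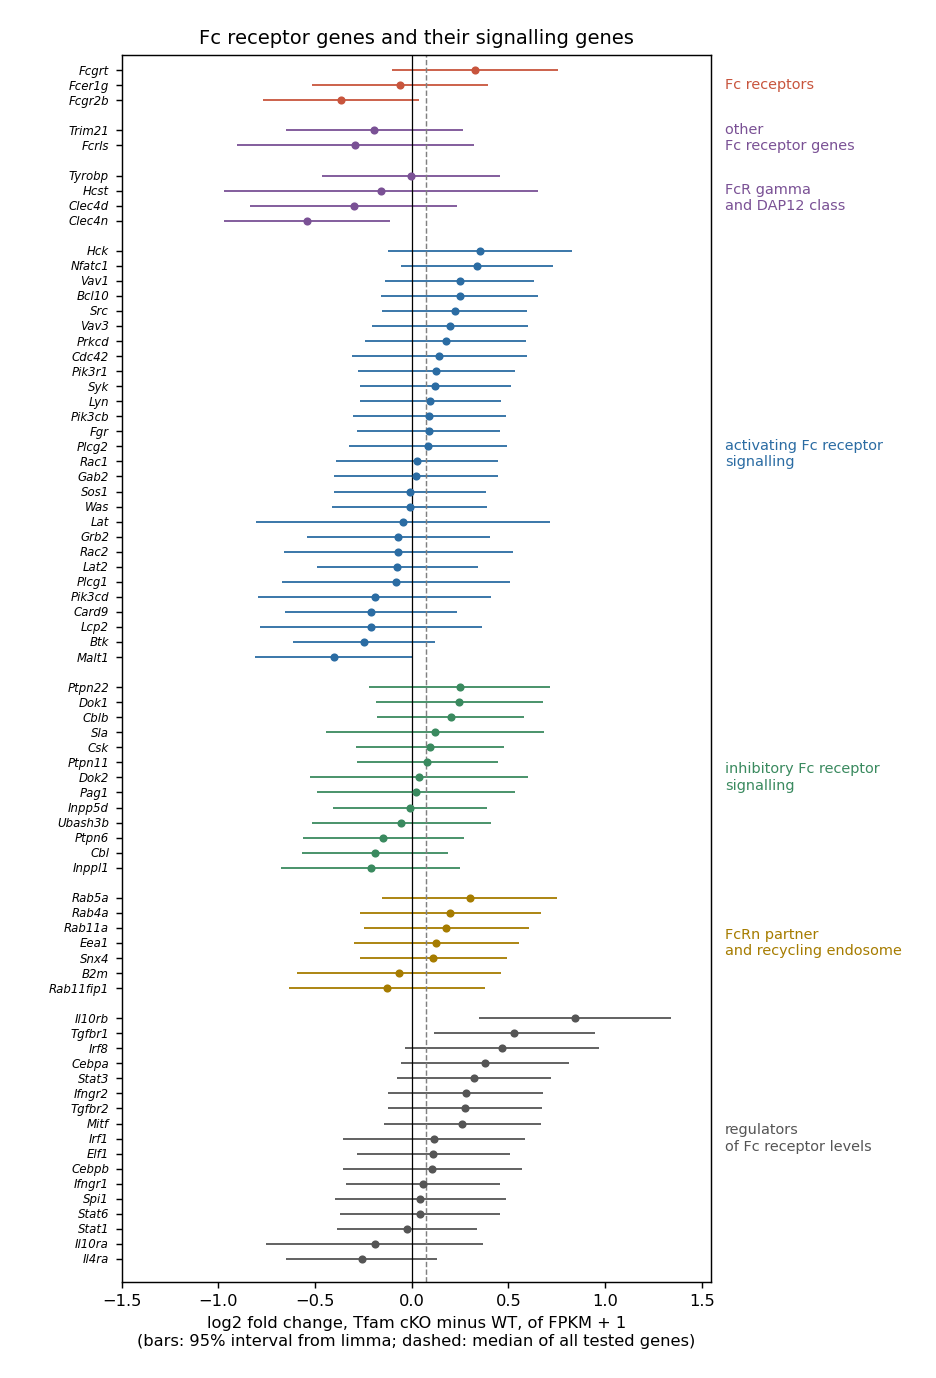
Log2 fold change of FPKM + 1, Tfam cKO minus WT, for the 3 tested Fc receptor genes and the tested genes of 6 related lists, points for estimates, bars for limma's 95% interval not adjusted for the number of genes, a solid line at 0 and a dashed line at 0.07, the median of all tested genes. The intervals of Fcgrt, Fcer1g and Fcgr2b all cross 0, and those of Clec4n, Il10rb and Tgfbr1 do not.

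The genes whose profile over the 4 libraries was closest to that of Fcer1g and of Fcgr2b were found by Euclidean distance between centred log2(FPKM + 1) values, among 7042 genes of regular symbol with a mean of at least 5 FPKM. For Fcer1g these were Ppp4r3a, a regulatory subunit gene of protein phosphatase 4 (distance 0.0273), Rsbn1l (0.0273) and Fbxo18, a helicase gene (0.0332). For Fcgr2b, the tested member of largest fold change, they were Fundc1, a mitophagy receptor (0.0501), Dusp2, a MAP kinase phosphatase (0.0555), and Dapp1, an adaptor that binds phosphoinositides (0.0665). Dusp2 was at 66.8, 57.4, 53.4 and 45.1 FPKM and Dapp1 at 47.3, 41.8, 38.0 and 31.4 FPKM in WT 1, WT 2, Tfam cKO 1 and Tfam cKO 2. Within a distance of 0.1 there were 123 genes for Fcer1g and 9 for Fcgr2b.

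**Figure D4:**
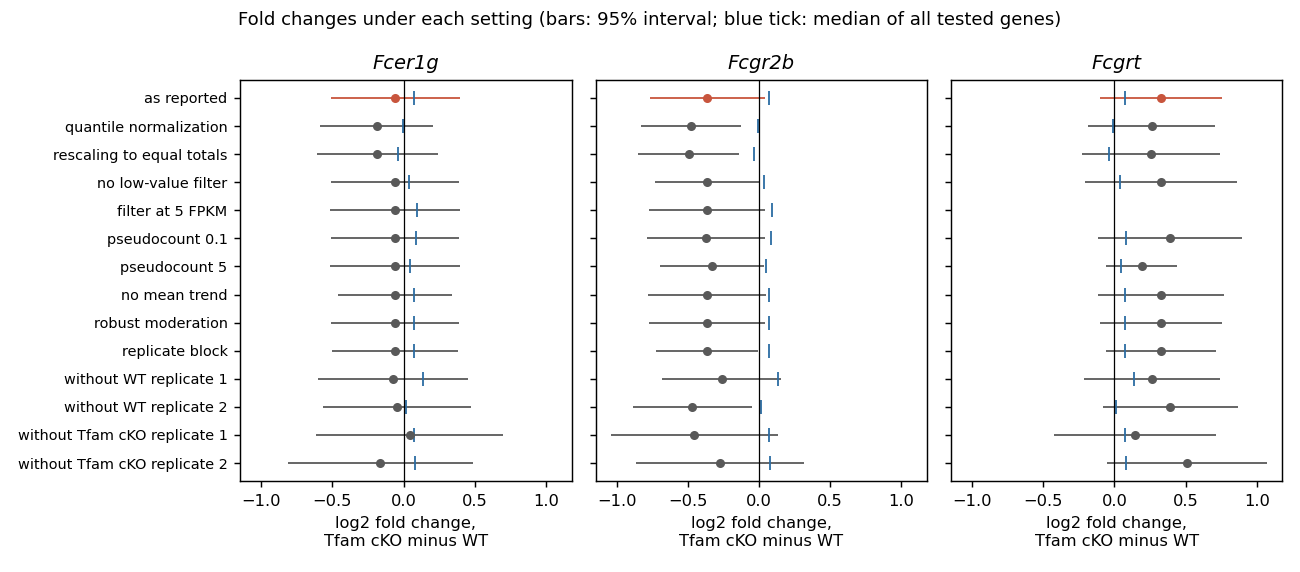
Log2 fold change of Fcer1g, Fcgr2b and Fcgrt, Tfam cKO minus WT, as reported (red) and under each other setting (grey), with bars for limma's 95% interval and a blue tick for the median of all tested genes under the same setting. Fcgr2b stays below 0 and Fcgrt above 0 throughout, with no value for Fcgrt at a filter of 5 FPKM, and Fcer1g lies near 0 with 1 change of sign, without Tfam cKO replicate 1.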

How the data were processed

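The 4 deposited tables, 1 per library, hold Cufflinks FPKM values from the authors, each with a lower and an upper confidence bound. The names of these columns give no level, and the bounds were taken as Cufflinks' 95% interval. The submitters' processing notes name CASAVA, Cufflinks and mm10, with no version. Aligner, annotation, strandedness and read length are not given in any source used here. Members and gene lists were chosen with earlier results of these data known.

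Loci of 1 symbol were summed (24994 rows, 24441 symbols). The 10910 symbols whose mean reached 1 FPKM were tested on log2(FPKM + 1), which understates changes of low genes, in limma 3.58.1 (R 4.3.3) on genotype alone, with the variance trended on the mean and p-values adjusted by Benjamini-Hochberg over all of them. The code was tested on simulated data. Effective fragments were derived from Cufflinks' interval, taken as 2 standard errors per side. They and the intervals cover counting error only, and read depth is not recorded. Deposited FPKM summed to 338783 to 395707 per library.

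Beside the 7 members, the rule names genes that passed in a related list, or the 2 most abundant where none did, and the 3 nearest profiles. Others were chosen after their values were seen. The alternatives were other scaling, filters, pseudocounts, variance models, a replicate term and leaving out each library. Coding sequences came from GENCODE M21 and were aligned with Biopython 1.88. Figures used matplotlib 3.10.9.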

Additional observations from a re-analysis of the deposited data

How the results depend on the processing

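No Fc receptor gene passed under any of the alternatives run. Over them Fcgr2b had a log2 fold change between −0.49 and −0.26 (lowest limma adjusted p = 0.47), with an unadjusted p below 0.05 after rescaling, quantile normalization, the replicate block (0.0441) and without WT replicate 2. Fcgrt lay between 0.14 and 0.51 and was removed by the filter at 5 FPKM. Fcer1g lay between −0.19 and 0.04, and its sign turned without Tfam cKO replicate 1 (0.0421). Leaving out a library in turn gave −0.163 to 0.0421 for Fcer1g, −0.469 to −0.260 for Fcgr2b and 0.144 to 0.512 for Fcgrt. The log2 ratio of Fcer1g to its ligand-binding chains differed by −0.0141 with a pseudocount of 0.1, −0.0579 with 5 and −0.00345 without WT replicate 1 (range without a library −0.00345 to 0.0896). The cause was not tested. Without a low-value filter Fcgr3 and Fcgr4 could be fitted too, with limma adjusted p of 0.91 and 0.90.

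Genes past the threshold over the whole table numbered 2 higher and 0 lower. There were 0 higher without a low-value filter, 1 with the filter at 5 FPKM and 1 with a pseudocount of 5, and 1 lower without a mean trend and 2 with robust moderation. Without a library, 12 to 63 were higher and 3 to 40 lower, in fits that take the spread of a lone library from the other genotype. With the replicate number as a block, 145 were higher and 39 lower, and 1 regulator of Fc receptor levels, Il10rb, passed. None of the other 5 related lists gained a call under any alternative, while among marker lists the block called 3 macrophage, 2 dendritic epidermal T cell, 1 NK cell and 1 dermal dendritic cell genes. Same-numbered libraries share only a number in the labels. Their differences correlated across genes with r = 0.255, as a hint and not a design, and the block changed no call of a member (Fcgr2b adjusted p = 0.47, Fcgrt 0.61, Fcer1g 0.98). It gave 0.976 for the ratio of Fcgr3 to Fcgr2b and 0.0431 for that of Fcer1g, as without it. With 2 libraries in each genotype these sizes are equal by arithmetic, so their agreement checks nothing. With fewer than 10 fragments per library, differences in Fcgr3 or Fcgr4 were not detectable at this depth.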
